A study of Homo sapiens with 6 samples.

Results

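The transcription factors that set up and hold B cell identity were examined in NALM6 cells treated with THZ1, as 10 genes: PAX5, EBF1, IKZF1, IKZF3, TCF3, TCF4, BACH2, FOXO1, LEF1 and SPIB. They were listed by name, with earlier results of these data known, and were found by Ensembl identifier in the count table and by symbol in the expression table. All 10 of the 57905 genes of the count table were matched, and all 10 were among the 16622 genes that passed edgeR's filter on low counts. The expression table of 16730 genes held 9 of them, all but IKZF3. NALM6 cells are an established human line of leukemic B cell precursors (acute lymphoblastic leukemia). THZ1 binds covalently to CDK7, a kinase of the cell cycle and of transcription by RNA polymerase II, and inhibits it. In the RNA-SEQ experiment, 3 libraries were from cells given the solvent DMSO and 3 from cells given 500 nM of THZ1, each for 24 h. All libraries come from this single cell line, and the labels do not say whether replicates were separate cultures, so p-values measure only the spread between these samples, which may be technical.

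Commitment to the B lineage rests on a layered network of such factors. The E proteins TCF3 and TCF4 bind E-box sequences, TCF3 together with EBF1 and FOXO1 opens the early B cell program, and PAX5 then holds the cell in that lineage by activating B cell genes and repressing genes of other lineages. IKZF1 and IKZF3 are zinc finger proteins of the Ikaros family, BACH2 is a repressor that works at the pre-B cell stage and later restrains plasma cell differentiation, LEF1 is a nuclear partner of beta-catenin, and SPIB is an ETS factor of B cells. PAX5, EBF1, IKZF1 and TCF3 are recurrent sites of deletion or fusion in B cell leukemia.

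The starts of PAX5, LEF1 and FOXO1 are shown because these genes stand for a large fall, a fall from the highest level and a rise. The 250 bases before the start are given as RefSeq has them on GRCh38.p14, 5′ to 3′ on the strand of the gene, with each GC box (GGGCGG on either strand) in capitals.
PAX5, chr9:37034269-37034518 (-): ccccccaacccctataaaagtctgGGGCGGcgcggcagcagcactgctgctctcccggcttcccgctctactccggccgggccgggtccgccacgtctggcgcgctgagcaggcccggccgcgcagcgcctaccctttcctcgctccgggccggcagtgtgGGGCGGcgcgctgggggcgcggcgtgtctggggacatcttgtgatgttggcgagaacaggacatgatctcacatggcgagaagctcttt
LEF1, chr4:108166302-108166551 (-): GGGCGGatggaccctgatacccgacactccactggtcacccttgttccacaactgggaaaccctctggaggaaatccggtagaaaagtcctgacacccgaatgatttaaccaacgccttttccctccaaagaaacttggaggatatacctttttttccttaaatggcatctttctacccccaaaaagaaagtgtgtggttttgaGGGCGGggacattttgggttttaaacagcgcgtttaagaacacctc
FOXO1, chr13:40666642-40666891 (-): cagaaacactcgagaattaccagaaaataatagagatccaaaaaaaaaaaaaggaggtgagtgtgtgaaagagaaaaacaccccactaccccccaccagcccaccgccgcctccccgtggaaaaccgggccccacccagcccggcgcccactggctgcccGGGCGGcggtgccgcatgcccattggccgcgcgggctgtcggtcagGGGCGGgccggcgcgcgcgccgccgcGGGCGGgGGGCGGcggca
The stretch before PAX5 held 2 GC boxes, that before LEF1 2 and that before FOXO1 4. RefSeq windows from 250 bases before to 50 after a start were found for 9 of the 10 genes, IKZF3 excepted, with 20 windows in all, of which 10 belong to TCF4. A GC box was in 45.0% of these 20 windows and in 45.0% of all 35116 windows of the table. By gene, 8 of the 9 had a GC box in some window, all but EBF1, and no share by gene was taken over all genes. The E-box CANNTG, the site of the E proteins, was in 65.0% against 68.7%. GGAA, the core of ETS sites, was in 19 of the 20 windows against 95.5%, and TGGGAA, a core of Ikaros sites that holds GGAA, was in 35.0% against 24.0%. CCAAT was in 30.0% against 34.6%, and TATAAA in 30.0% against 11.5%. TATAAA stood in windows of IKZF1, PAX5, SPIB and TCF4, so the genes that hold it include both genes that fell and genes that did not. Both strands were searched, and the windows of one gene are not independent of each other.

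The libraries held 11015480 to 11164840 counts with DMSO and 7876402 to 8314306 with THZ1. Levels are given as CPM, counts relative to each library's TMM-scaled size, and 3 counts corresponded to at most 0.253 CPM under DMSO and 0.415 CPM under THZ1, a floor for counting error only. All 9 markers of B cell precursors that were matched were at 10 CPM or more, and their sum was 3200 to 3490 CPM with DMSO against 1840 to 1900 CPM with THZ1. Markers of other cells had lower sums. With DMSO and THZ1 these were 0.082 to 0.338 and 0.92 to 1.52 CPM for 6 T cell genes (CD8A at 0). They were 7.09 to 8.85 and 8.96 to 14.0 CPM for 4 NK cell genes (KLRD1 and NCAM1 at 0). For the erythroid genes HBA1, HBA2, HBB and ALAS2 they were 0.164 to 0.253 and 3.61 to 3.81 CPM. The sums were 3.88 to 4.63 and 18.5 to 20.1 CPM for 6 myeloid genes (FCN1 at 0), 30.7 to 37.1 and 42.5 to 51.8 CPM for 3 plasma cell genes, and 11.4 to 13.0 and 18.7 to 20.6 CPM for 4 stromal genes. These sums moved with the treatment, and their part in the results was not tested. In such bulk RNA, fewer cells of a type and less RNA per cell cannot be told apart. CPM is a share of the library, and no added RNA standard is named in the sources used here. A rise or a fall is therefore relative to the other genes, and a change in total RNA per cell was not tested.

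With THZ1, 6 of the 10 genes fell, 2 rose and 2 did not pass the test (edgeR quasi-likelihood test, adjusted p below 0.05). PAX5, BACH2 and IKZF1 fell by 3.94-fold, 3.73-fold and 3.23-fold and LEF1 by 2.76-fold, whereas EBF1 and TCF3 fell by 1.43-fold and 1.46-fold. FOXO1 rose 2.01-fold, SPIB rose from a level of few counts but had the opposite direction in the deposited FPKM values, and TCF4 and IKZF3 were not called. Among all genes tested, 41.1% were called lower and 43.5% higher, 84.5% in either direction, so 8 called of 10 is close to the background. A fall of at least 1.5 on the log2 scale was found for 3 genes, PAX5, BACH2 and IKZF1, against 12.9% of all genes tested, and a rise of that size for 0 against 24.6%. LEF1, with a log2 fold change of −1.46, lay just outside that threshold. The libraries of the treatments did not overlap for 8 of the 10, against 84.7% of all genes tested. The median log2 fold change was −0.53 over the 10 genes and 0.03 over all genes tested. Protein-coding genes tested that span more than 100 kb, as 8 of the 10 do, had a median of −0.64, with 62.9% called lower. The part of the span in these values was not tested.

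**Figure D1:**
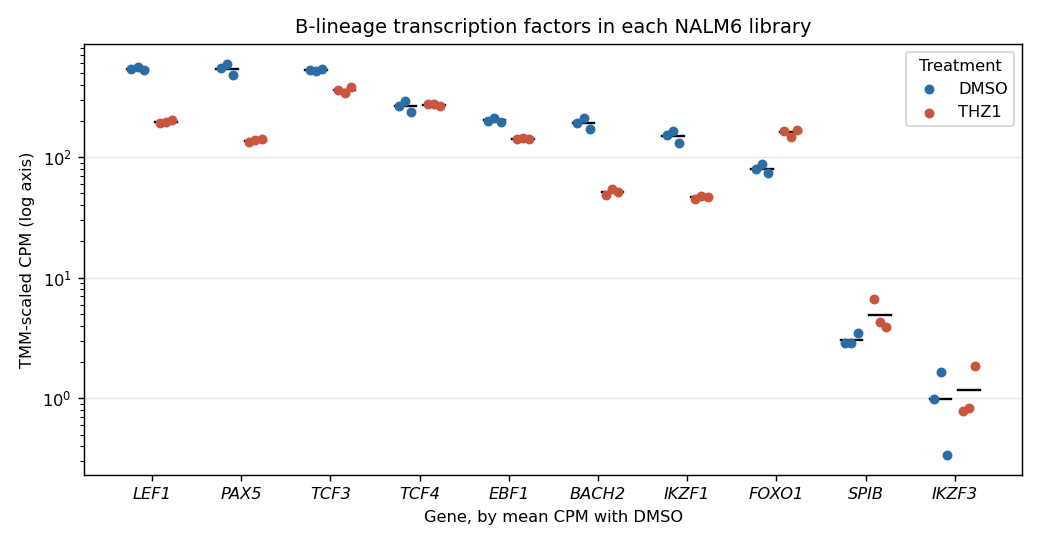
Level of each gene in each library, in TMM-scaled CPM on a log axis, with 3 DMSO-treated libraries in blue and 3 THZ1-treated libraries in red, and black bars for the means. The points of PAX5, LEF1, BACH2, IKZF1, TCF3 and EBF1 lie lower with THZ1, those of FOXO1 and SPIB lie higher, and those of TCF4 and IKZF3 overlap.

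PAX5 (ENSG00000196092, GRCh37 chr9:36833266-37034265, minus strand), the factor of B cell commitment, was at 544.9, 597.6 and 480.3 CPM in the DMSO-treated libraries and at 132.4, 138.8 and 140.2 CPM in the THZ1-treated libraries. Every THZ1-treated library was far below every DMSO-treated library. The level went from 540.9 ± 58.7 to 137.2 ± 4.17 CPM (SD, n = 3 each), with a log2 fold change of −1.98 ± 0.08 (SE; edgeR, adjusted p = 6.62e-21). Of all genes tested, 6.81% had a lower log2 fold change. EBF1 (ENSG00000164330, chr5:158122928-158526924, minus strand), a pioneer factor that acts ahead of PAX5 and with it, was at 200.1, 211.9 and 195.6 CPM with DMSO and at 140.8, 142.9 and 142.6 CPM with THZ1. These groups did not overlap either, with a log2 fold change of −0.51 ± 0.07 (SE; edgeR, adjusted p = 4.54e-08).

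The fall was larger for PAX5 than for EBF1 in the same libraries, without overlap of the ratios. The ratio of PAX5 to EBF1 counts was 2.72, 2.82 and 2.46 with DMSO and 0.940, 0.972 and 0.983 with THZ1, a 2.76-fold drop (log2 difference −1.46, two-sided exact permutation test, p = 0.1). This p is the smallest that 3 libraries against 3 allow. Such a ratio does not depend on the scaling of the library. In all, 6 ratios were compared by this exact permutation test, each with p = 0.1 before and after Benjamini-Hochberg adjustment.

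Among the E proteins, TCF3 (ENSG00000071564, chr19:1609290-1652614, minus strand), the source of E12 and E47, fell and TCF4 was not called. TCF3 was at 529.0, 515.9 and 541.9 CPM with DMSO and at 363.3, 340.0 and 384.9 CPM with THZ1. No THZ1-treated library reached the DMSO-treated ones, and the log2 fold change was −0.54 ± 0.07 (SE; edgeR, adjusted p = 9.44e-09). TCF4 (ENSG00000196628, chr18:52889416-53332018, minus strand), also an E protein and not to be confused with the beta-catenin partner TCF7L2, was at 265.6, 292.5 and 234.9 CPM with DMSO and at 277.3, 273.9 and 263.6 CPM with THZ1. The THZ1-treated values lay within the range of the DMSO-treated ones, with a log2 fold change of 0.04 (95% interval −0.11 to 0.19, edgeR, adjusted p = 0.62). Its sign depended on the scaling, from 0.23 with upper quartile factors (adjusted p = 0.00443) to −0.21 with library sizes alone (adjusted p = 0.0113), both called by edgeR. The ratio of TCF3 to TCF4 counts, which is free of that choice, was 1.99, 1.76 and 2.31 with DMSO and 1.31, 1.24 and 1.46 with THZ1 (log2 difference −0.59, two-sided exact permutation test, p = 0.1).

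The summed CPM of TCF3, TCF4 and TCF12 was 866.0 to 922.9 with DMSO and 682.4 to 714.7 with THZ1. In the deposited FPKM values, which are per length, their sum was 312.4 ± 15.4 and 190.5 ± 7.94 (SD, n = 3 each). ID proteins bind E proteins and keep them off DNA, and of the 4 ID genes 3 rose and 1 fell. The shares over all genes tested were 43.5% called higher and 41.1% called lower. ID2 was at 4.71, 4.18 and 4.47 CPM with DMSO and at 73.0, 75.4 and 76.6 CPM with THZ1, for a log2 fold change of 4.07 ± 0.12 (SE; edgeR, adjusted p = 2.55e-24). ID1 rose from 1.78 ± 0.618 to 12.3 ± 1.96 CPM and ID4 from 13.7 ± 1.07 to 27.9 ± 3.57 CPM (SD, n = 3 each). ID3, the ID gene with the most counts under DMSO, fell from 140.6 ± 13.6 to 61.9 ± 5.69 CPM, with a log2 fold change of −1.18 ± 0.08 (SE; edgeR, adjusted p = 3.78e-14). As these moved in opposite directions, the summed CPM of the ID genes was 147.1 to 173.8 with DMSO and 170.2 to 186.9 with THZ1, and the ranges overlapped. Summed CPM gives longer genes more weight, so this overlap holds for CPM only. In FPKM, ID3 went from 276.6 ± 9.80 to 105.1 ± 8.87 and ID2 from 6.49 ± 0.400 to 86.0 ± 1.96. ID1 went from 4.94 ± 1.48 to 25.7 ± 4.23 and ID4 from 10.54 ± 0.516 to 18.25 ± 2.60 FPKM (SD, n = 3 each). Per length, the fall of ID3 exceeded the rises of the other ID genes together.

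Of the Ikaros family, IKZF1 fell while IKZF3 was hardly present. IKZF1 (ENSG00000185811, chr7:50343664-50472799, plus strand) was at 152.9, 166.1 and 130.1 CPM with DMSO and at 44.7, 47.5 and 47.1 CPM with THZ1. The groups were well apart, with a log2 fold change of −1.69 ± 0.09 (SE; edgeR, adjusted p = 1.15e-17). IKZF3 (ENSG00000161405, chr17:37913971-38020565, minus strand), its partner in the same complexes, had 12, 20 and 4 counts with DMSO and 6, 6 and 14 with THZ1. The groups overlapped, and the interval of the log2 fold change was wide, from −0.75 to 1.20 (edgeR, adjusted p = 0.664). Its sign turned to −0.19 without DMSO replicate 3 and to −0.30 without THZ1 replicate 3, so no direction can be given at this depth. Per kb of exon, IKZF1 stood at 13.7 ± 1.66 CPM and IKZF3 at 0.0977 ± 0.0643 CPM with DMSO (SD, n = 3 each), against 4.25 ± 0.137 and 0.115 ± 0.0606 CPM with THZ1. The count ratio of IKZF1 to IKZF3 was 101.3 to 385.5 with DMSO and 25.1 to 57.2 with THZ1 (log2 difference −2.07, two-sided exact permutation test, p = 0.1), and rests on the few counts of IKZF3.

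Cereblon is the part of a ubiquitin ligase through which lenalidomide and its relatives direct IKZF1 and IKZF3 to destruction. Of the 5 ligase genes, 4 fell, namely CUL4A by 1.24, CUL4B by 0.73, CRBN by 0.56 and DDB1 by 0.50 on the log2 scale. Over all genes tested, 41.1% were called lower, 43.5% higher and 84.5% in either direction. CRBN was at 41.0, 43.6 and 38.7 CPM with DMSO and at 31.4, 27.4 and 25.0 CPM with THZ1, without overlap (edgeR, adjusted p = 1.13e-05). RBX1, the RING subunit, was called higher at a log2 fold change of 0.40 (edgeR, adjusted p = 0.0415), a call that was lost when any library but THZ1 replicate 2 was left out, and with the replicate block (adjusted p = 0.0562), library sizes alone or no filter. In the deposited FPKM values its direction was reversed (−0.18 on the log2(FPKM + 1) scale).

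BACH2 (ENSG00000112182, chr6:90636247-91006562, minus strand) was at 191.5, 213.0 and 172.3 CPM with DMSO and at 48.9, 54.4 and 51.5 CPM with THZ1. The fall was close in size to that of PAX5, with a log2 fold change of −1.90 ± 0.08 (SE; edgeR, adjusted p = 1.84e-19). PRDM1, the plasma cell regulator that BACH2 is known to repress, rose from 1.13 ± 0.252 to 10.01 ± 0.730 CPM (SD, n = 3 each; edgeR, adjusted p = 4.99e-13), a log2 fold change of 3.13. In the deposited FPKM values the rise of PRDM1 was smaller, from 1.06 ± 0.0860 to 2.64 ± 0.194 FPKM, or 0.82 on the log2(FPKM + 1) scale. XBP1, another plasma cell regulator, fell from 512.2 ± 25.4 to 262.4 ± 2.44 CPM. MAFG, a small MAF protein of the kind with which BACH2 pairs on DNA, rose from 68.2 ± 2.59 to 692.4 ± 41.8 CPM, a log2 fold change of 3.34 ± 0.08 (SE; edgeR, adjusted p = 5.43e-27).

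LEF1 (ENSG00000138795, chr4:108968701-109090112, minus strand) was at 536.5, 555.1 and 532.6 CPM with DMSO and at 192.8, 194.4 and 201.6 CPM with THZ1. The spread within each treatment was small beside the gap, and the log2 fold change was −1.46 ± 0.07 (SE; edgeR, adjusted p = 4.18e-19). TCF7, a relative of LEF1 best known from T cells, had 12, 2 and 9 counts with DMSO and 132, 133 and 112 with THZ1. Its log2 fold change was 4.70 ± 0.27 (SE; edgeR, adjusted p = 1.63e-16), from a level close to the floor. In the deposited FPKM values the rise was smaller, from 0.747 ± 0.150 to 3.08 ± 0.335 FPKM (SD, n = 3 each), or 1.22 on the log2(FPKM + 1) scale.

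FOXO1 (ENSG00000150907, chr13:41129804-41240778, minus strand), a forkhead factor held out of the nucleus by AKT signaling and needed for IL7R and RAG expression in B cell precursors, was at 79.2, 87.3 and 73.4 CPM with DMSO. With THZ1 it was at 166.2, 147.0 and 169.1 CPM. All 3 THZ1-treated libraries were above all 3 DMSO-treated ones, and the log2 fold change was 1.01 ± 0.08 (SE; edgeR, adjusted p = 3.23e-13). FOXO4 rose further, from 10.4 ± 1.77 to 56.9 ± 2.62 CPM (SD, n = 3 each; edgeR, adjusted p = 9.08e-19). IL7R, the receptor of interleukin 7, had the lowest log2 fold change among the B-lineage target genes, at −4.05 ± 0.09 (SE), from 333.7 ± 33.7 to 20.2 ± 1.61 CPM (edgeR, adjusted p = 1.23e-26). RAG1 and RAG2, the recombinase genes, were named after their values were seen. RAG2 fell from 116.3 ± 12.4 to 73.0 ± 3.04 CPM (log2 fold change −0.67, edgeR, adjusted p = 7.59e-09). RAG1 went from 384.2 ± 53.5 to 439.0 ± 10.2 CPM, with overlapping groups and a log2 fold change of 0.19 (edgeR, adjusted p = 0.0223), but from 142.7 ± 28.2 to 140.1 ± 3.34 in FPKM.

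SPIB (ENSG00000269404, chr19:50922195-50934571, plus strand) had 35, 35 and 41 counts with DMSO and 51, 31 and 29 with THZ1. In CPM these were 2.89, 2.87 and 3.46 against 6.71, 4.29 and 3.88, with the highest value in THZ1 replicate 1 and a narrow gap between the groups. The log2 fold change was 0.69 (95% interval 0.18 to 1.21, edgeR, adjusted p = 0.0123). The call was lost without THZ1 replicate 1 (0.40, edgeR, adjusted p = 0.199) and with library sizes alone (0.45, adjusted p = 0.0993). In the deposited FPKM values the direction was reversed, at −0.41 on the log2(FPKM + 1) scale (limma, adjusted p = 0.109), so the direction of SPIB depends on the table used. ENSG00000142539, a protein-coding gene on the same strand (chr19:50919056-50931666), overlaps SPIB and had 0 counts in every library. The part of this overlap in the counts of SPIB was not tested.

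**Figure D2:**
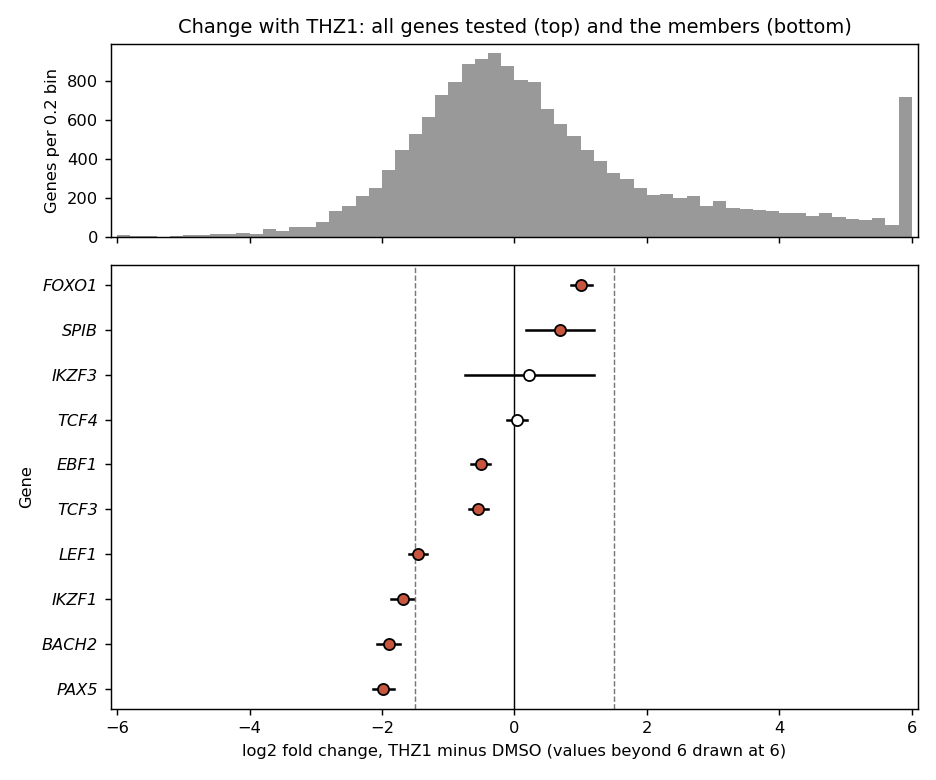
Histogram of log2 fold changes (THZ1 minus DMSO) of the 16622 genes tested, above the 10 genes with their 95% intervals as lines, filled points for those called by edgeR and open points for those not called, and dashed lines at 1.5 either way. PAX5, BACH2 and IKZF1 lie beyond the left dashed line, and LEF1 at −1.46 lies beside it.

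The level per length was read from the deposited FPKM values (fragments per kilobase, scaled to the library). Libraries of one treatment have nearly the same sorted values there, by a step that is not given. The SDs and overlaps of FPKM were read after that step. With DMSO the order from the top was LEF1 at 296.8 ± 23.7, TCF3 at 256.5 ± 9.12, PAX5 at 165.9 ± 29.3, EBF1 at 91.3 ± 7.09 and BACH2 at 55.4 ± 7.66 FPKM (SD, n = 3 each). IKZF1 at 38.2 ± 4.96 and FOXO1 at 35.0 ± 3.29 FPKM came next, and the libraries of these neighbours overlapped, while no other neighbours in the order did. TCF4 at 26.4 ± 2.67 and SPIB at 2.86 ± 0.335 FPKM closed it. LEF1 was higher than 98.1% of the table and PAX5 than 96.2%.

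With THZ1 the order was TCF3 at 147.8 ± 8.53, LEF1 at 92.7 ± 2.03, FOXO1 at 64.6 ± 4.89, EBF1 at 57.7 ± 0.223 and PAX5 at 37.5 ± 1.14 FPKM. TCF4 at 25.0 ± 0.683, BACH2 at 13.0 ± 0.726, IKZF1 at 10.1 ± 0.417 and SPIB at 1.96 ± 0.771 FPKM followed, with no overlap between neighbours. FOXO1 thus stood above PAX5, EBF1, BACH2 and IKZF1 with THZ1, and below PAX5, EBF1 and BACH2 with DMSO. PAX5 went from above 96.2% to above 78.5% of the table, BACH2 from 85.7% to 54.0%, IKZF1 from 79.1% to 48.2% and FOXO1 from 77.3% to 87.8%.

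The share of each gene in its family was taken from the same FPKM values and is given as a description. LEF1 made up 97.6% ± 0.109 of the summed FPKM of LEF1, TCF7 and TCF7L2 with DMSO and 87.1% ± 1.75 with THZ1 (SD, n = 3 each), while the sum went from 304.1 to 106.4 FPKM. TCF3 held 82.2% ± 1.20 of the E proteins with DMSO and 77.6% ± 1.24 with THZ1, and TCF4 8.43% ± 0.437 and 13.1% ± 0.785. IKZF1 went from the largest share of IKZF1, IKZF2, IKZF4 and IKZF5, 47.6% ± 2.15, to 27.7% ± 2.09, below IKZF5 at 39.1% ± 3.51. FOXO1 kept the largest share of the FOXO sum in both treatments, with 69.0% ± 0.528 and 60.0% ± 1.79. FOXO4 went from 16.4% ± 0.357 to 36.5% ± 0.972 and FOXO3 from 14.6% ± 0.223 to 3.51% ± 0.820, while the sum went from 50.8 to 107.7 FPKM. By counts FOXO3 was not called (log2 fold change −0.28, edgeR, adjusted p = 0.0688), and its libraries overlapped between treatments.

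**Figure D3:**
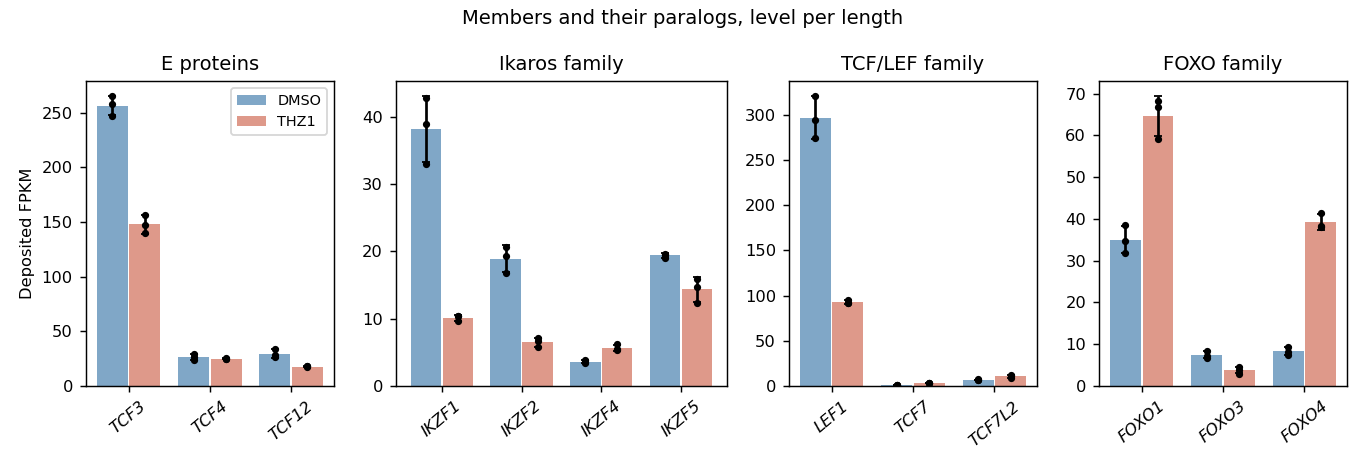
Deposited FPKM of the genes and their paralogs in 4 families, with bars for the means of 3 libraries, error bars for the SD and points for the libraries, DMSO in blue and THZ1 in red, and a separate vertical scale for each family. LEF1 and TCF3 exceed their paralogs in both treatments, FOXO1 and FOXO4 are higher with THZ1, and IKZF5 exceeds IKZF1 with THZ1.

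Genes on the opposite strand within or across these genes were read beside them, since the strand setting of the counting is not given in the sources used here and reads of such partners cannot be told apart. LEF1-AS1 (chr4:109088681-109179193), an antisense RNA over the start of LEF1, was at 61.8 ± 4.59 CPM with DMSO against 63.7 ± 2.09 CPM with THZ1 (SD, n = 3 each; log2 fold change 0.04 ± 0.08 SE, edgeR, adjusted p = 0.636). Within the libraries, the ratio of LEF1 to LEF1-AS1 counts was 8.66, 8.37 and 9.32 with DMSO and 3.15, 3.01 and 3.10 with THZ1 (log2 difference −1.51, two-sided exact permutation test, p = 0.1). ENSG00000250850, an antisense RNA inside PAX5 (chr9:37002648-37008037), was at 17.2 ± 2.54 and 18.6 ± 0.492 CPM (edgeR, adjusted p = 0.442), and PAX5 fell relative to it by 2.09 on the log2 scale (two-sided exact permutation test, p = 0.1). Inside BACH2, ENSG00000226455 (chr6:90659835-90662905) was at 8.30 ± 2.83 and 8.20 ± 1.93 CPM (edgeR, adjusted p = 0.933), and BACH2 fell relative to it by 1.91 (two-sided exact permutation test, p = 0.1). These 3 pairs were chosen after their values were seen. ENSG00000260271, which crosses the start of BACH2, had 12, 20 and 14 counts with DMSO and 2, 2 and 4 with THZ1, and RLIMP1, a pseudogene inside FOXO1, had 1, 0 and 0 counts with DMSO and 28, 32 and 22 with THZ1.

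Beside these genes, 38 other regulators of B cell development were listed, of which 37 were tested, with RUNX3 left out. Of these, 21 fell and 14 rose, 5 and 6 of them by at least 1.5 on the log2 scale, and the median was −0.51. Among all genes tested, 41.1% were called lower and 43.5% higher, and 12.9% were lower and 24.6% higher by that size. The number of large falls is thus close to the background. ERG, STAT5B and FLI1 had the lowest values, of which ERG, an ETS factor, fell from 86.7 ± 0.158 to 17.4 ± 3.42 CPM (SD, n = 3 each; log2 fold change −2.32 ± 0.11 SE, edgeR, adjusted p = 4.83e-19). STAT5B, which carries the signal of the IL7 receptor, fell by 2.17 and FLI1, another ETS factor, by 2.13. TCF7, MAFG and FOXO4, described above, had the highest.

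The regulator whose profile over the 6 libraries was nearest was found for each gene as the smallest root mean square difference of centred log2 CPM. That distance includes the change with THZ1, so genes with like log2 fold changes come out near. Some gene among the 37 searched is always nearest, and shared regulation was not tested. STAT5B was nearest to PAX5 (0.109) and BACH2 (0.139), STAT5A to IKZF1 (0.140), CBFB to LEF1 (0.102), BCL11A to EBF1 (0.0504), GABPA to TCF3 (0.0761), MEF2D to TCF4 (0.111) and ZEB2 to FOXO1 (0.135). For SPIB (ZEB2, 0.290) and IKZF3 (BACH1, 0.494), which have few counts, the nearest profile was farther off. CBFB, the partner of RUNX proteins, was at 219.2 ± 8.36 CPM with DMSO against 87.3 ± 5.65 CPM with THZ1, and ZEB2, a zinc finger repressor, at 82.9 ± 7.62 and 147.3 ± 7.63 CPM (SD, n = 3 each).

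Of 27 B-lineage identity and target genes, 24 were tested, and CD24, CD40 and CR2 were not. Of the 24, 18 fell and 4 rose, 13 of the 18 by at least 1.5 on the log2 scale, and the median was −1.55. Among all genes tested, 41.1% were called lower, 43.5% higher and 12.9% lower by at least 1.5. After IL7R, the lowest were CD38, a surface enzyme, from 94.0 ± 5.38 to 9.25 ± 1.80 CPM, and FCRLA, an Fc receptor-like protein, from 43.4 ± 2.97 to 7.21 ± 1.29 CPM (SD, n = 3 each; edgeR, adjusted p = 3.11e-22 and 7.55e-18). CD79A, the signaling chain of the B cell receptor and a known PAX5 and EBF1 target, rose from 128.9 ± 6.12 to 323.4 ± 11.9 CPM (edgeR, adjusted p = 1.13e-17). MS4A1, which encodes CD20, rose from 4.40 ± 0.683 to 25.5 ± 0.405 CPM, and TNFRSF13C, the BAFF receptor, from 26.6 ± 2.94 to 60.9 ± 3.82 CPM. The targets thus included genes with changes opposite to that of PAX5.

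The cofactors that these proteins bind showed no common direction, with 7 lower and 7 higher of 17 tested (TLE3 was not) and a median of −0.00. With 41.1% of all genes tested called lower and 43.5% higher, these counts are close to the background. Within the NuRD complex that Ikaros proteins recruit, MTA2 rose from 279.6 ± 4.89 to 1387 ± 25.2 CPM and HDAC1 from 246.0 ± 13.1 to 572.6 ± 7.81 CPM, whereas HDAC2 fell from 216.7 ± 8.60 to 125.6 ± 5.50 CPM and MBD3 from 111.3 ± 14.5 to 61.6 ± 2.17 CPM (SD, n = 3 each). CHD4 and RBBP4, also of this complex, were named after their values were seen. CHD4 was not called, at 598.2 ± 24.9 and 597.8 ± 35.4 CPM (edgeR, adjusted p = 0.991), and RBBP4 fell from 378.2 ± 14.7 to 221.2 ± 1.07 CPM. CTBP2, a corepressor, fell by 1.68 on the log2 scale, and TLE5, a short Groucho-related protein, rose from 332.8 ± 41.4 to 675.0 ± 7.28 CPM.

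Of 20 regulators of plasma cells and other blood lineages, 9 had enough counts to be tested, of which 4 rose and 3 fell. Such counts are near the shares of all genes tested, 43.5% called higher and 41.1% lower. Besides PRDM1, the highest were CEBPB, a myeloid factor, from 17.3 ± 4.29 to 57.8 ± 1.34 CPM (SD, n = 3 each; edgeR, adjusted p = 9.97e-15), and KLF1, an erythroid factor with 3, 1 and 2 counts under DMSO and 17, 22 and 20 under THZ1. In the deposited FPKM values KLF1 went from 0.870 ± 0.177 to 3.01 ± 0.554 FPKM, or by 1.09 on the log2(FPKM + 1) scale. ALAS2, an erythroid marker named after its values were seen, had 1, 1 and 0 counts under DMSO and 25, 23 and 21 under THZ1. Besides XBP1, the lowest were TOX, with 47, 38 and 57 counts against 5, 4 and 10, and NOTCH1, which fell by 0.40 on the log2 scale (edgeR, adjusted p = 0.000994, and 0.0716 with upper quartile factors). The sums of the myeloid, T cell, NK cell, erythroid, plasma cell and stromal markers given above were higher with THZ1 as well, and their part in these values was not tested. The members of these sums did not all move one way, and those named next were picked after their values were seen. Of 4 myeloid genes tested, CD14 and CSF1R were called higher and LYZ lower. Of 2 plasma cell genes tested, SDC1 was called higher and JCHAIN lower. Of 2 stromal genes tested, COL1A1 was called higher and PDGFRB lower.

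**Figure D4:**
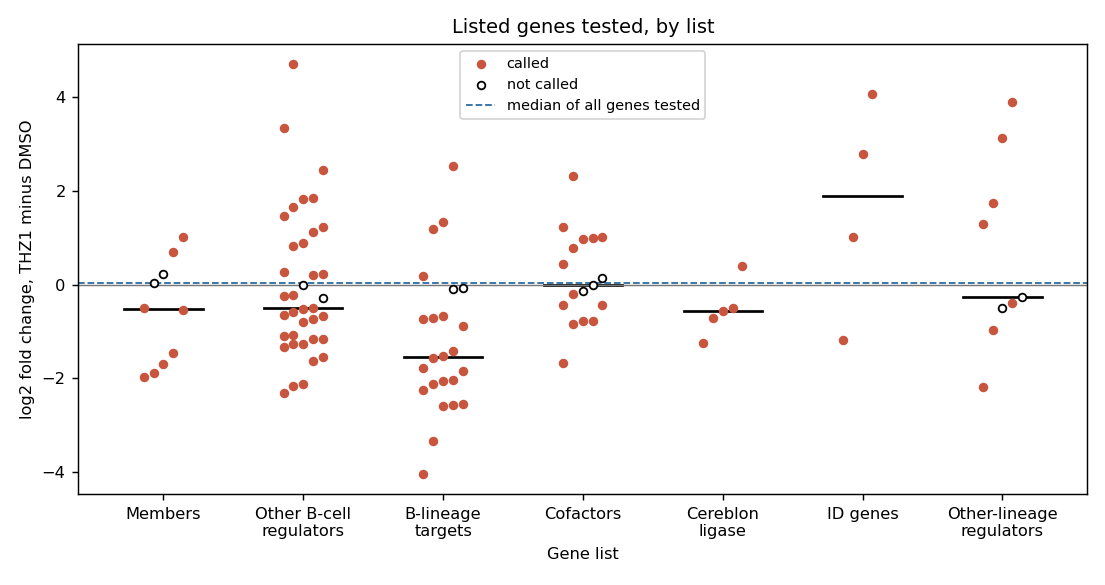
Log2 fold change (THZ1 minus DMSO) of every listed gene that was tested, by list, with filled points for genes called by edgeR, open points for those not called, black bars for each list's median and a dashed line for the median of all genes tested. The median lies at −0.53 for the 10 genes, −0.51 for the other regulators, −1.55 for the B-lineage targets, −0.00 for the cofactors, −0.56 for the ligase genes, 1.90 for the ID genes and −0.27 for the regulators of other lineages.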

How the data were processed

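RNA-SEQ libraries of NALM6 cells, 3 with DMSO and 3 with THZ1, were grouped by the treatment in the labels. The deposited counts are raw, from reads that the authors mapped to GRCh37 with STAR and counted with htseq-count. The submitters' processing notes also name cutadapt and RSEM. The gene annotation and the strand setting are not given in the sources used here. A second deposited table holds log2 values, read from their range as log2(FPKM + 1), with FPKM calculated by the authors with RSEM. Libraries of one treatment have nearly the same sorted values in it, by a step that is not given in the sources used here. Its p-values, FDR and log2 fold changes are the authors' own comparison and were not used. All value columns were mapped to samples by name.

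Counts were filtered with edgeR's filterByExpr (minimum count 10, minimum total 15), scaled by TMM and fitted with edgeR's quasi-likelihood model, p-values were adjusted over all 16622 genes (Benjamini-Hochberg), and a gene was called at an adjusted p-value below 0.05. Ratios of 2 genes were tested by a two-sided exact permutation test over libraries. Symbols and GRCh37 coordinates came from GENCODE 44, and promoters from RefSeq. Replicates differed by more than sampling noise (chi-square per gene 1.77 to 8.58) and were kept apart. The code was tested on simulated counts. The result of 1 marker gene is not reported here.

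The members and lists were chosen with earlier results of these data known. Named genes are the members, the ID and ligase genes, from each other list the 3 highest and 3 lowest among called genes of at least 1 CPM without overlap between treatments, and each member's nearest regulator. The antisense and overlapping genes were named after their values were seen. Results were recomputed with RLE factors, with upper quartile factors, by DESeq2, with library sizes alone, without a filter or with at least 10 counts in each library, with the replicate number as a block, with 1 library left out at a time, and by limma on log2(FPKM + 1) or log2(FPKM + 0.1) with a mean FPKM of at least 0.1 or 1. R 4.3.3, edgeR 4.0.16, limma 3.58.1, DESeq2 1.42.0 and Python 3.11.15 were used.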

Additional observations from a re-analysis of the deposited data

How the results depend on the processing

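PAX5, EBF1, IKZF1, TCF3, BACH2, FOXO1 and LEF1 kept their direction and their call under all 16 alternatives. The median over all genes tested moved by 0.19 (log2) with upper quartile factors, −0.25 with library sizes alone, 0.42 without the filter and −0.18 with limma on log2(FPKM + 1), and 57.2%, 44.2%, 56.4% and 44.6% of calls were higher, against 51.4%. The members called lower numbered 6 to 7, and those lower by 1.5 on the log2 scale 2 to 4. The members called higher numbered 3 with upper quartile factors and with at least 10 counts in every library. They numbered 1 with library sizes alone and in all 3 fits of FPKM, and 1 to 2 with a library left out (1 without THZ1 replicate 1). Of the ligase genes, 0 were called higher with library sizes alone, without the filter, with the replicate block and on FPKM, and 0 to 1 with a library left out. Regulators of other lineages called lower numbered 5 with library sizes alone, and those called higher 2 with at least 10 counts in every library. The sign turned for IKZF3 (−0.022 with library sizes alone, −0.19 without DMSO replicate 3, −0.30 without THZ1 replicate 3; range with a library left out −0.30 to 0.44) and TCF4 (−0.21 with library sizes alone, −0.047 without the filter, −0.059 to 0.095 with a library left out, −0.073, −0.075 and −0.073 on FPKM). On FPKM with pseudocounts of 1 and 0.1, and with a mean of at least 1, it also turned for SPIB (−0.41, −0.58, −0.41), RBX1 (−0.18, −0.21, −0.18) and BACH1 (−0.057, −0.061, −0.057), and with library sizes alone for MEF2D (−0.035). The cause was not tested. The log2(FPKM + 1) values were also smaller for MS4A1 (1.65) and ID1 (2.18), and with a pseudocount of 0.1 larger in size for TOX (−3.57), STAT5A (−2.80), CD38 (−3.99), CTBP2 (−2.37) and NOTCH1 (−1.01). TCF4 was called higher at 0.17 with at least 10 counts in every library. IKZF3 was not fitted on FPKM, in the filter of at least 10 counts in every library or without DMSO replicate 2. The replicate numbers did not pair the libraries (same-numbered deviations correlated at −0.004, 0.001 and 0.0206), and with the block 6 members were lower and 2 higher, with PAX5 at −1.97. Depth limits IKZF3 and SPIB most, with at most 20 and 51 counts in a library.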

Other observations

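In 8 of the 10 genes, DMSO replicate 2 had the highest and DMSO replicate 3 the lowest CPM of the DMSO-treated libraries, against 24.0% of all genes tested. The 8 are PAX5, EBF1, IKZF1, IKZF3, TCF4, BACH2, FOXO1 and LEF1, which all span more than 100 kb, and the 2 others are TCF3, with a span of 43.3 kb, and SPIB, with 12.4 kb. The ratio of replicate 2 to replicate 3 was 1.24 for PAX5, 1.28 for IKZF1, 1.24 for BACH2, 1.25 for TCF4, 1.08 for EBF1 and 1.04 for LEF1. Among the protein-coding genes tested, the order was found in 11.2% of 4461 genes under 20 kb, 30.5% of 5369 genes of 20 to 100 kb and 46.1% of 2099 genes over 100 kb. It was found in 19 of the 37 other regulators and 8 of the 24 target genes tested. The pattern was noticed in these data, DMSO replicates 2 and 3 were also the pair of replicates that differed most by chi-square per gene (8.58), and the part of the library in these values was not tested.

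The same spans were read against the change with THZ1. The median log2 fold change was 0.39 under 20 kb, −0.41 from 20 to 100 kb and −0.64 over 100 kb, and 62.9% of the genes over 100 kb were called lower and 20.7% higher. Of the 8 genes over 100 kb, PAX5, EBF1, IKZF1, BACH2 and LEF1 fell, FOXO1 rose, and TCF4 (442.6 kb) and IKZF3 (106.6 kb) were not called. TCF4, with the longest span of the 10, had a log2 fold change of 0.04, EBF1, with 404.0 kb, one of −0.51, BACH2, with 370.3 kb, one of −1.90, and PAX5, with 201.0 kb, one of −1.98. The values were −1.69 for IKZF1 with 129.1 kb, −1.46 for LEF1 with 121.4 kb and 1.01 for FOXO1 with 111.0 kb. The span was not tested as a cause, and these values are given as a description.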
